A study of Homo sapiens with 16 samples.

Results

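Of 355447 regions of open chromatin merged from 16 peak lists of the human lung fibroblast line IMR90, 110 had a peak in every normoxia library and in no hypoxia library, with and without Raf signalling. They are 0.0309% of all merged regions and 0.125% of the 88051 regions that all 8 normoxia libraries listed. The peaks of all 16 lists on chromosomes 1 to 22 and X were pooled, intervals that overlapped by at least 1 bp were merged, and a library had a region when any of its peaks overlapped it. The choice thus used the peak calls of both oxygen states, so the loss itself is a description here and was not tested.

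Chromatin was probed by ATAC-seq, in which the transposase Tn5 cuts DNA that is not shielded by nucleosomes and reads pile up into peaks at promoters, enhancers and other open sites. All cells, controls included, carried a retroviral fusion of B-RAF with the estrogen receptor, ΔB-RAF:ER, which is inactive until 4-hydroxytamoxifen switches it on. The 4 groups were normoxia with Raf inactive, normoxia with Raf active, hypoxia (0.5% oxygen) with Raf inactive and hypoxia with Raf active, each with 4 replicate libraries. Whether the replicates are separate cultures is not given in the labels, so every p-value below refers to differences among these libraries, and their spread may be technical.

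In low oxygen the prolyl hydroxylases that mark HIF-1α and HIF-2α for destruction lose activity, and the stabilised factors bind enhancers and promoters of glycolytic, angiogenic and survival genes. Other oxygen-dependent dioxygenases, among them the JmjC histone demethylases, also slow, so histone methylation can rise. Sustained Raf signalling drives fibroblasts into oncogene-induced senescence, a permanent arrest with a secretory phenotype and a broad reworking of enhancers.

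Loss in both Raf states was rare. With Raf inactive, 4756 regions (1.34% of all merged regions) were listed by 4 of 4 normoxia and 0 of 4 hypoxia libraries, and with Raf active 9154 (2.58%). The 110 regions made up 2.31% of the first list and 1.202% of the second. Most of each list had no listed peak in normoxia of the other Raf state. Of the 4756 regions, 2856 (60.1%) had no peak in any Raf-active normoxia library. Of the 9154 regions, 6839 (74.7%) had none in any Raf-inactive normoxia library. A missing peak need not mean closed chromatin, and depth differed between the Raf states. Another 1258 of the 4756 regions (26.5%) and 1061 of the 9154 (11.6%) were listed by all 4 normoxia libraries of the other state, and there 110 also lost every hypoxia peak. Regions gained in both states, with 0 of 8 normoxia and 8 of 8 hypoxia libraries, numbered 235 (0.0661%), or 5.25% of the 4474 regions (1.26%) gained with Raf inactive and 2.13% of the 11042 (3.11%) gained with Raf active. In bulk cells, opening in fewer cells and weaker opening per cell cannot be told apart.

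**Figure D1:**
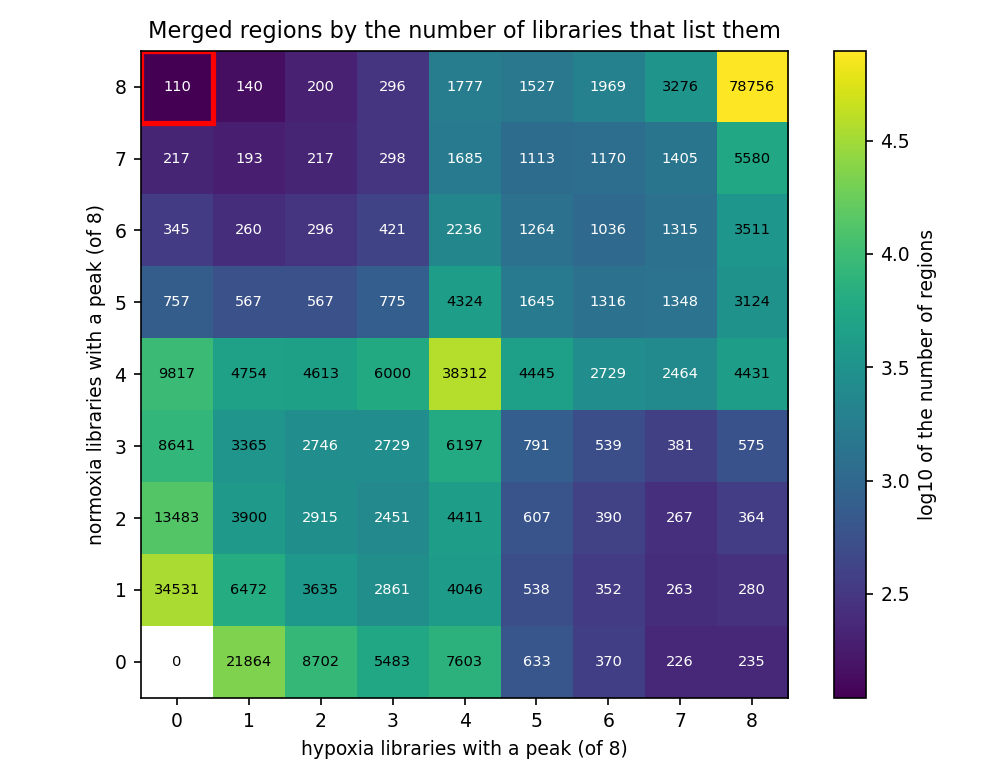
Merged regions counted by the number of normoxia libraries (vertical axis, 0 to 8) and hypoxia libraries (horizontal axis, 0 to 8) that list them, with the colour giving the log10 of the count. The outlined corner holds the 110 regions in 8 normoxia and 0 hypoxia libraries, and its neighbours hold 140 (1 hypoxia library) and 217 (7 normoxia libraries).

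The edge of the rule was not empty. In 140 regions all 8 normoxia libraries and 1 hypoxia library had a peak, and 217 regions missed 1 normoxia library and had no hypoxia peak. The extra hypoxia peak lay in Raf-inactive libraries 1 to 4 in 32, 22, 11 and 7 of the 140 cases and in Raf-active libraries 1 to 4 in 15, 9, 25 and 19. The strongest region just outside lay 32450 bp from PPIAL4F (chr1:144560085-144560443). Its mean fold was 14.9 in normoxia and its one hypoxia peak had a fold of 4.01. Next came a region in BCL9L (chr11:118922077-118922356), with a mean fold of 2.76 and a hypoxia peak of fold 2.22. The third lay 157959 bp from TBC1D22A (chr22:47333658-47334150), with a mean fold of 4.05 and a hypoxia peak of fold 1.44. Among those lacking a normoxia peak, the strongest lay in SMYD5 (chr2:73218306-73218708, mean fold 4.83). Just inside, the weakest member lay 420836 bp from NYAP2 (chr2:226124490-226125053, mean fold 3.41).

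The rule was repeated with each replicate number left out of all groups, and the libraries left out were then looked up. The 247, 219, 218 and 197 regions chosen without replicates 1, 2, 3 and 4 were listed by 77.6% ± 3.22 of cases in the left-out Raf-inactive normoxia library (SD, n = 4) and by 87.8% ± 3.71 in the Raf-active one. In hypoxia the left-out library had a peak in 12.3% ± 7.24 of them with Raf inactive and in 12.8% ± 4.12 with Raf active. The lowest normoxia value, 74.5%, was above the highest hypoxia value, 21.5%, and hypoxia Raf-inactive libraries ranged widest, from 6.09% to 21.5%. The 4 choices overlap in their regions, so no test was made of these shares. The same shares were not computed for other regions, so whether members recur more or less often than those is not known.

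**Figure D2:**
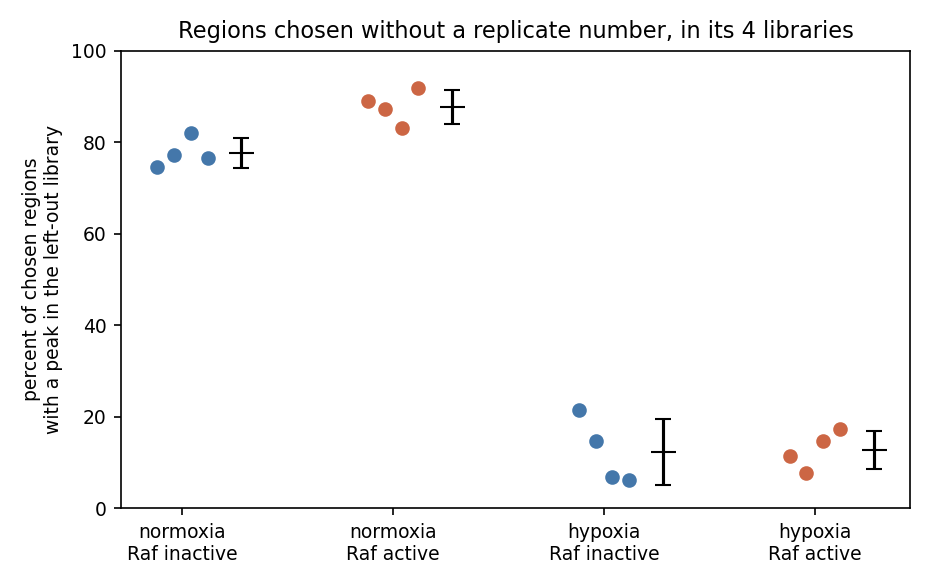
Percent of regions (vertical axis, 0 to 100) that had a peak in a library not used to choose them, for the 4 groups, with 1 point per left-out replicate, coloured by Raf state, and the mean ± SD of 4 beside them. Normoxia points lie between 74.5% and 91.9% and hypoxia points between 6.09% and 21.5%.

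Depth differed between groups but was not lower in hypoxia. The background pileup of a library, recovered from the fold and −log10 p of its peaks, stands in for depth: it was 3.01 to 3.50 in Raf-inactive and 6.09 to 7.10 in Raf-active normoxia, and 4.61 to 5.02 and 6.53 to 8.34 in hypoxia. The lists held 169287 to 206757 distinct peaks. Promoter-near peaks do not identify the cell type here, since a peak within 1 kb of the start was found for 10 or 11 of 12 fibroblast marker genes but also for 8 or 9 of 12 neuronal, 6 to 9 epithelial, 5 to 9 endothelial and 5 or 6 blood markers, over the 16 libraries.

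The 110 regions were weak sites. Each list was ranked by the −log10 p of its peaks, and the mean rank of a member over the 8 normoxia lists had a median percentile of 30.3 (range 8.46 to 66.5), with 106 of 110 under 50. Regions just outside the rule were weak too. Their median was 32.8 for the 140 with 1 hypoxia peak and 24.6 for the 217 that missed 1 normoxia library. Low ranks were thus not particular to the members. Against the 88051 regions shared by all normoxia libraries, the median member stood between the percentiles 6.73 and 9.60 of each library. The fold of the peak over its local background had a median of 3.901 to 4.45 per library, against 9.38 to 10.5 for those 88051 regions. The summit pileup divided by the background pileup of the library is called the summit level below. Its median was 7.43 to 8.63 for members, against 19.2 to 21.7 for the shared regions with a recovered level. Peaks with a −log10 p of 290 or more have no recovered level, so the strongest regions are missing from the second range. Local background around the summits was 1.28 to 1.58 times that of the library. The merged regions had a median length of 396.5 bp (257 to 1175), near the 409 bp of all merged regions and short of the 786 bp of regions in all 8 normoxia lists. When all lists were thinned to the same depth and cut at a −log10 p of 5, the rule gave 128 regions, with 60 of the 110 among them. The same cut without thinning, added after the data were seen, gave 114, with 96 of the 110. When only peaks with a fold of at least 5 counted, the rule gave 94, with 3 of the 110 among them.

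The absence of a peak sets an upper bound on the summit level in hypoxia. For each region and hypoxia library, the lowest summit pileup that would pass the smallest −log10 p on that list (2.74 to 2.86) was computed with the local background the region had in normoxia of the same Raf state. All 110 mean normoxia levels would have passed in each of the 8 hypoxia lists, and so would the lowest of the 4 normoxia libraries for all 110. The level needed had a median of 42.7% to 45.0% of the normoxia mean, from 15.3% in the most tightly bound case to 69.6% in the least. A level that only just reaches the threshold may still go unlisted, since the caller also asks for a minimum width, so the bound is approximate.

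Few of the sites were promoters. One of the 110 regions (0.909%) lay within 1 kb of the start of a protein-coding gene, against 16.6% of the regions in all 8 normoxia lists, 6.58% of all merged regions and 4.68% of the regions gained in hypoxia in both Raf states. Most, 65 (59.1%), lay 5 to 50 kb from the nearest start, against 42.3%, 46.4% and 32.8%. The remaining shares were 11 regions at 1 to 5 kb and 33 (30%) beyond 50 kb, while 56.6% of the gained regions lay beyond 50 kb. The median distance was 28156 bp for the lost and 65974 bp for the gained regions. Most of the 88051 regions, 78756, were in all 16 lists. Of the other 9295, which include the members, 4.20% lay within 1 kb of a start and 51.9% at 5 to 50 kb. With gene ends counted as well as starts, 6 members (5.45%) lay within 1 kb, against 6.73% of the 9295. A low share near starts was thus common to regions missing from some hypoxia list, and a further shortage in members was not tested. These shares and distances are descriptions of lists chosen on the same libraries, and the part of peak strength in them was not tested.

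**Figure D3:**
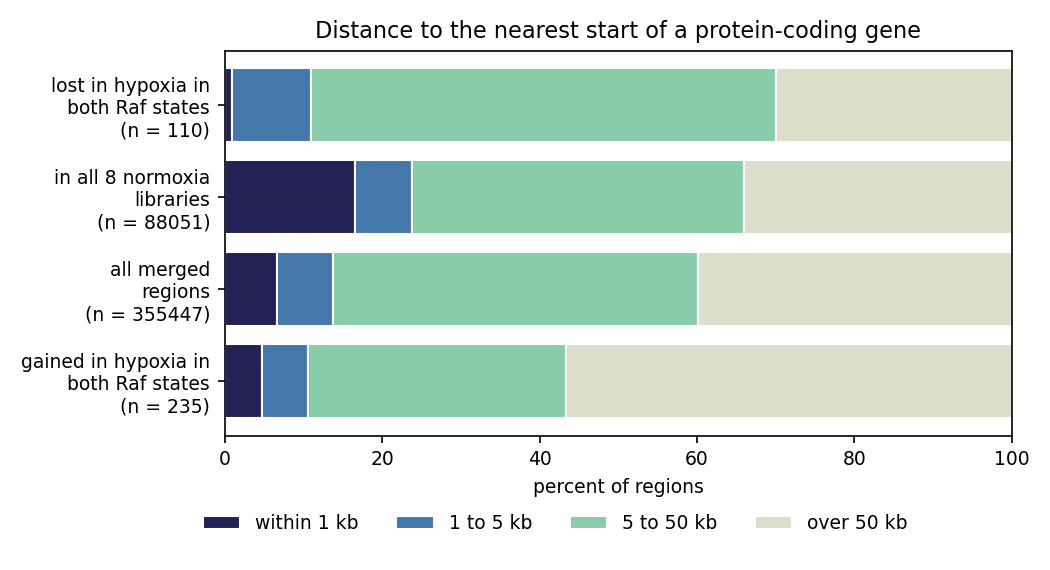
Percent of regions (horizontal axis) by distance to the nearest start of a protein-coding gene, for the 110 lost regions, the 88051 regions in all 8 normoxia lists, all 355447 merged regions and the 235 gained regions. The share within 1 kb is 0.909% for the lost regions and 16.6% for those in all normoxia lists, and the share over 50 kb is 30% for the lost and 56.6% for the gained.

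In the RefSeq gene table of GRCh38.p14, 68 regions (61.8%) overlapped a protein-coding gene, 12 a long non-coding RNA gene alone and 30 neither. The share in protein-coding genes was 60.7% for regions in all 8 normoxia lists and 44.3% for the gained regions. The table does not separate exons from introns. Chromosome 5 held 14 of the 110 (12.7%, against 5.42% of regions in all 8 normoxia lists), chromosome 1 held 10, and chromosome 2 held 3 (2.73% against 8.49%). No 2 members were closer than 190903 bp, and no protein-coding gene, taken with 10 kb on each side, had more than 1.

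The lost sites stood among sites that stayed. The nearest region listed by all 8 hypoxia libraries was a median of 3771 bp away (399 to 51224 bp), within 10 kb for 89 of the 110 and under 1 kb for 7. These distances were not computed for other regions, so whether members lie closer to such sites than others do is not known. The closest such neighbours were those of the members in ERP44 (399 bp), ARHGAP26 (491 bp) and SBF2 (551 bp). Other peaks within 10 kb of a member numbered 2.44 to 2.64 per region in Raf-inactive normoxia libraries and 2.39 to 2.55 in hypoxia. With Raf active they numbered 3.15 to 3.35 in normoxia and 3.04 to 3.16 in hypoxia. The groups of the 2 oxygen states overlapped in both comparisons.

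The strongest member lay 20 bp outside TUSC2, which encodes a mitochondrial protein, and 1869 bp from the nearest start, that of HYAL2 (chr3:50324614-50324889, hg38). Its summit level was 37.9, 36.8, 35.1 and 48.03 in the Raf-inactive normoxia libraries and 60.3, 63.4, 69.8 and 58.7 in the Raf-active ones. Its fold over the local background averaged 3.59, below the median member. The second lay 9740 bp from CDH17, a cadherin of intestinal epithelium (chr8:94227018-94227507), with levels of 16.5, 16.9, 15.5 and 17.7 without and 16.3, 11.5, 20.04 and 22.5 with active Raf, overlapping ranges. Both ranked highest among the 110 by mean percentile over the normoxia lists (66.5 and 61.0).

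ERP44, a thioredoxin-family gene of the endoplasmic reticulum, holds a member 31934 bp from its start (chr9:100066136-100067066) at 12.6 ± 3.61 (SD, n = 4) without and 22.1 ± 1.35 (SD, n = 4) with active Raf. TXNDC12, of the same family and compartment, holds one 3793 bp from the nearest start, that of KTI12 (chr1:52037603-52037939) at 17.2 ± 1.62 (SD, n = 4) without and 23.2 ± 3.54 (SD, n = 4) with active Raf. The member in MAP3K5, the stress kinase ASK1 upstream of JNK and p38 (chr6:136760688-136761111), stood at 14.2 ± 3.46 (SD, n = 4) without and 8.26 ± 0.573 (SD, n = 4) with active Raf. The member 30691 bp from MAP4, a microtubule-binding protein gene (chr3:48119539-48120150), had the highest mean fold of the 110 at 8.20, with levels of 13.1 ± 3.46 (SD, n = 4) without and 7.25 ± 1.48 (SD, n = 4) with active Raf. The ranks near TUSC2 and in ERP44 were higher with Raf and that near MAP4 lower (limma, adjusted p = 0.0388, 0.0137 and 0.0135), while those near CDH17, in TXNDC12 and in MAP3K5 were not called (limma, adjusted p = 0.176, 0.0664 and 0.109). In MAP3K5 the summit levels of the Raf-active libraries nevertheless all lay below those of the Raf-inactive ones. By log2 summit level MAP3K5 was called lower (-0.75, limma, adjusted p = 0.00084) and TXNDC12 higher (0.43, limma, adjusted p = 0.011).

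The other regions among the 10 strongest moved with Raf and are described with that comparison. The bound on the level in hypoxia was tight for several. The highest of the 4 thresholds in Raf-active hypoxia lists was 16.4% of the normoxia mean in GRIA1, 17.6% in TTC22 and 24.4% near CDH17. To go unlisted in all 4, a level had to stay under the lowest threshold, so these are upper limits. At the weak end the bound was loose. In SIN3A, which encodes the scaffold of a histone deacetylase corepressor (chr15:75431252-75432127), the highest threshold was 69.6% of the Raf-active normoxia mean. The rank of the SIN3A member was lower with Raf (limma, adjusted p = 0.0192). The levels there were 6.59, 4.98, 3.87 and 5.43 without and 3.82, 2.86, 3.29 and 3.24 with active Raf. The member in RBMS1, an RNA-binding protein gene (chr2:160288379-160288683), had levels of 5.08 ± 0.857 (SD, n = 4) without and 3.89 ± 0.694 (SD, n = 4) with active Raf.

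One member covers a microRNA. The region chr6:71376800-71377488 spans the hairpin of miR-30c-2 (chr6:71376960-71377031, minus strand, GRCh38.p14), and its sequences are shown because this is the one member that overlaps a listed microRNA. Such overlaps are rare, 163 of the 88051 regions in all 8 normoxia lists (0.185%) and 280 of all merged regions (0.0788%). The miR-30 family is broadly expressed and dampens many messenger RNAs through its shared seed. RefSeq gives the hairpin, with both mature arms in capitals, and the mature arms, with the seed (bases 2 to 8) in capitals, as follows.
MIR30C2 hairpin: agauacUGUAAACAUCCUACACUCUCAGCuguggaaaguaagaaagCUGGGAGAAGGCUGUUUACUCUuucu
hsa-miR-30c-5p: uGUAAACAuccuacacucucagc
hsa-miR-30c-2-3p: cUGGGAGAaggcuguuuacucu

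The 2 arms have different seeds. The summit level of the region was 4.28, 6.97, 6.25 and 4.57 in the 4 Raf-inactive normoxia libraries and 5.29, 6.299, 5.59 and 6.34 in the 4 Raf-active ones, overlapping ranges. Its rank did not pass the test for Raf (limma, adjusted p = 0.871). It lay 67741 bp from OGFRL1, the nearest protein-coding gene, and 6508 bp from the nearest region in all 8 hypoxia lists. The level needed for a call in hypoxia was at most 48.4% of the normoxia mean with Raf inactive and 49.9% with Raf active. ATAC-seq does not measure the microRNA itself.

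Genes of the hypoxia response were not among the hosts. Of 22 gene lists, 39 HIF targets, 20 glycolysis genes, 33 respiratory chain genes, 22 histone lysine demethylases and 53 genes of the secretory phenotype had no member in the gene or within 10 kb. Such loci hold few regions in general: the HIF target loci hold 0.279% of the regions in all 8 normoxia lists and the glycolysis loci 0.117%, so with 110 regions an empty list is not a result about it. Nor did the 5 lists of cell type markers hold a member.

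In 3 lists there was 1 member each. The NRF2 list has the member in ABCC1, which encodes an efflux pump for glutathione conjugates (chr16:16019567-16019823, 70424 bp from the start), with levels of 19.1, 14.3, 15.8 and 14.9 without and 21.1, 21.6, 19.9 and 17.9 with active Raf. The matrix list has the one in TNC, tenascin C, a matrix glycoprotein of remodelling tissue (chr9:115105989-115106357, 11800 bp from the start), at 7.91, 8.297, 5.95 and 8.86 without and 11.9, 10.9, 10.02 and 11.97 with active Raf. The TGF-beta and Hippo list has the one in WWTR1, which encodes the Hippo coactivator TAZ (chr3:149596096-149596540, 61485 bp from the start), at 4.61, 6.64, 6.25 and 6.58 without and 6.17, 6.299, 7.72 and 6.19 with active Raf. The levels of the Raf states overlapped in ABCC1 and WWTR1 and did not overlap in TNC. The ranks of these 3 did not pass the test for Raf (limma, adjusted p = 0.467, 0.455 and 0.485). By log2 summit level TNC and ABCC1 were higher with Raf, by 0.54 and 0.34 (limma, adjusted p = 0.0032 and 0.030), and WWTR1 was not called (adjusted p = 0.390). For TNC the measures differ in sign, since its rank score changed by -0.13.

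Raf in normoxia is a contrast the choice did not use, since every member is listed in both Raf states. Normal scores of the ranks by −log10 p among the 88051 shared regions were compared with limma, with Benjamini-Hochberg adjustment over all of them. With Raf active, 22 of the 110 regions (20%) ranked higher and 21 (19.1%) lower at an adjusted p below 0.05, and 67 were not called. Over all 88051 regions, 34.9% ranked higher and 35.9% lower, both above the members' shares, a gap that was not itself tested. Groups did not overlap, with all 4 Raf-active libraries above all 4 Raf-inactive ones, in 15 members (13.6%, against 32.6% of all), and with all below in 11 (10%, against 33.2%). The median size of the change in score was 0.40 for members and 0.54 for all. The part of the members' weak signal in these shares was not tested.

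With log2 of the summit level in place of ranks, an alternative added after the data were seen, 41 of the 110 members rose and 31 fell, against 37.6% and 37.2% of the 70624 regions with a recovered level. Of the members called by ranks, 38 were called the same way by levels and 1 the opposite way. The count of members that rise thus depends on the measure. With levels the share of rises is near the background, while that of falls stays below it, a gap that was not tested.

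**Figure D4:**
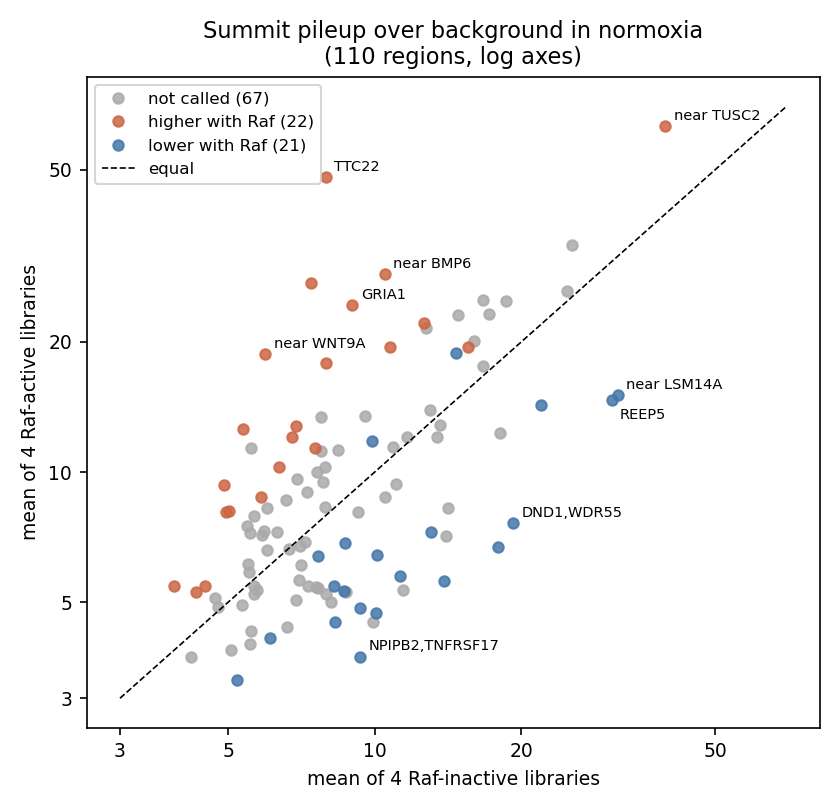
Mean summit level of each of the 110 regions in the 4 Raf-inactive (horizontal axis) and 4 Raf-active (vertical axis) normoxia libraries, both on log axes, coloured by the call from ranks, with the dashed line at equal levels. TTC22 and GRIA1 lie far above the line and the regions in WDR55 and near LSM14A far below it, and 67 regions in grey were not called.

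The largest rise in rank score was in TTC22, which encodes a tetratricopeptide repeat protein (chr1:54798913-54799470, 1853 bp from the start). Its summit level was 7.25, 9.29, 9.23 and 6.003 in the Raf-inactive libraries and 53.7, 45.96, 45.01 and 47.2 in the Raf-active ones. All 4 Raf-active values were at least 4 times the highest Raf-inactive one. The log2 change was 2.61 ± 0.15 (SE) and the change in rank score 1.83 ± 0.17 (limma, adjusted p = 9.9e-06). This site, which ranked higher with Raf, had no peak in the 4 hypoxia libraries with Raf active.

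The member in GRIA1, an AMPA glutamate receptor subunit gene (chr5:153559935-153560311, 67763 bp from the start), stood at 10.5, 9.96, 8.34 and 7.15 without and 21.1, 26.2, 24.6 and 25.3 with active Raf, a log2 change of 1.45 ± 0.14 (SE) and a score change of 1.57 (limma, adjusted p = 2.4e-05). The member 26294 bp from BMP6, a bone morphogenetic protein ligand gene (chr6:7699365-7699805), stood at 11.5, 10.3, 11.02 and 9.15 without and 29.8, 27.2, 26.1 and 31.4 with active Raf. Neither pair of groups overlapped. Near EAPP, an E2F-associated protein gene (chr14:34547810-34548453), the levels were 4.91 ± 1.34 (SD, n = 4) without and 9.36 ± 1.21 (SD, n = 4) with active Raf. Near WNT9A, a Wnt ligand gene (chr1:227913451-227914625, the longest member), they were 5.97 ± 0.652 (SD, n = 4) without and 18.7 ± 3.67 (SD, n = 4) with active Raf. The call near WNT9A is lost when regions are ranked by fold (adjusted p = 0.780).

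The largest fall in rank score was at the one member that touches a gene start, on chromosome 16, which overlaps NPIPB2 and TNFRSF17, the gene of the receptor BCMA of plasma cells (chr16:11965012-11965684). The levels were 9.22, 10.95, 7.14 and 10.01 in the Raf-inactive and 3.67, 3.58, 3.78 and 3.94 in the Raf-active libraries, a log2 change of -1.30 ± 0.14 (SE) and a score change of -1.74 ± 0.15 (limma, adjusted p = 6.4e-06). The start is that of TNFRSF17, for which both gene ends were taken as possible starts. NPIPB2 belongs to a family of near-identical copies on this chromosome, so reads may be shared between copies.

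The region in WDR55, a gene for ribosomal RNA processing, which also overlaps DND1, a germ cell RNA-binding protein gene (chr5:140670565-140670938), had levels of 19.2 ± 3.99 (SD, n = 4) without and 7.63 ± 1.66 (SD, n = 4) with active Raf. The region 7051 bp from LSM14A, a gene of RNA processing bodies (chr19:34236339-34236749), stood at 28.99, 36.2, 29.5 and 31.4 without and 14.2, 17.9, 13.8 and 14.4 with active Raf. The region in REEP5, which encodes a protein that shapes the endoplasmic reticulum (chr5:112918737-112919054, 3173 bp from the start), stood at 36.2, 26.9, 30.1 and 29.4 without and 15.1, 13.3, 14.5 and 15.8 with active Raf. The region 58626 bp from NECTIN3, an adhesion molecule gene (chr3:111252796-111253133), had levels of 9.34 ± 1.88 (SD, n = 4) without and 4.84 ± 0.666 (SD, n = 4) with active Raf. In all of these the 4 Raf-active libraries lay below the 4 Raf-inactive ones, with log2 changes of -1.33, -1.07, -1.06 and -0.94. The call in REEP5 is lost when regions are ranked by fold (adjusted p = 0.0575).

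**Figure D5:**
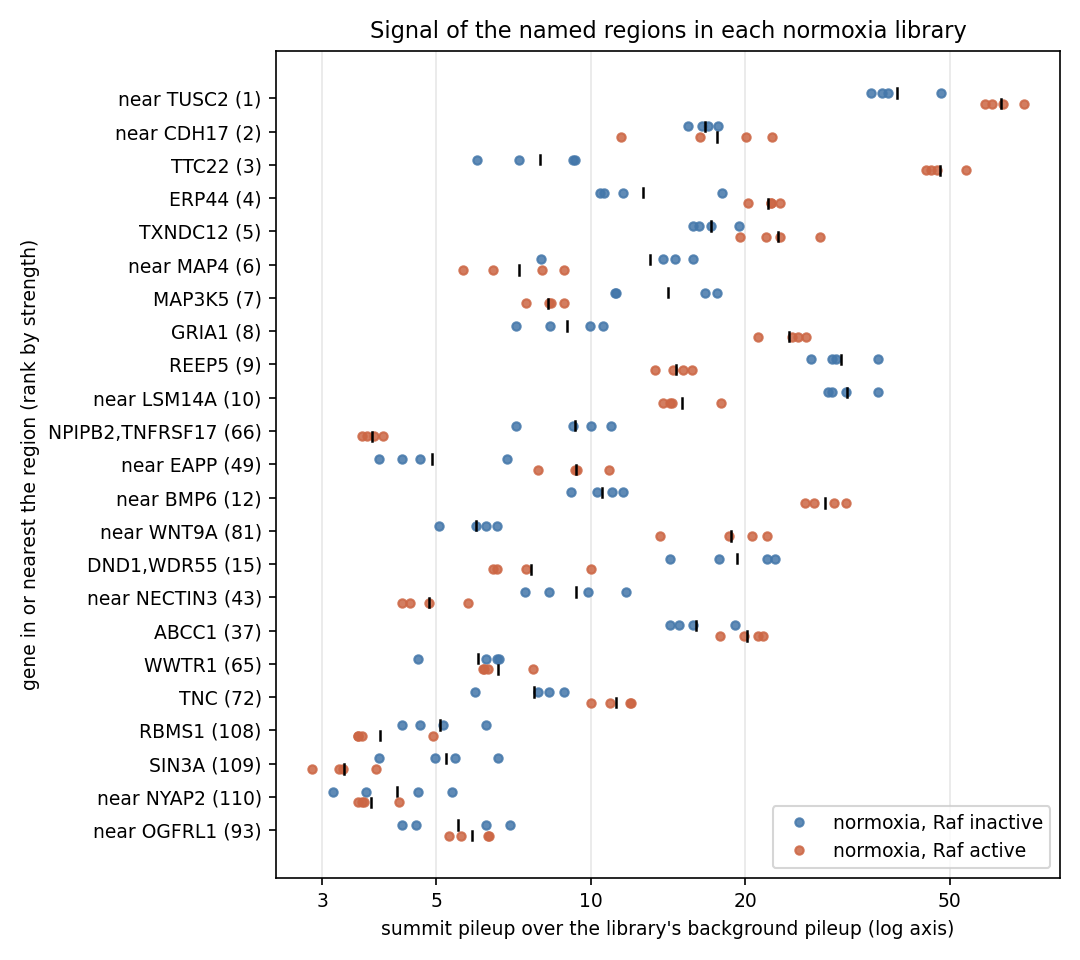
Summit pileup over the background pileup of the library (horizontal axis, log scale) for each named region, with 1 point per normoxia library, 4 per Raf state, and a black tick at each mean. In TTC22, GRIA1 and near BMP6 the Raf-active points lie above all Raf-inactive ones, in REEP5 and near LSM14A below them, and near CDH17 and in WWTR1 they overlap.

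Whether the genes around the lost sites changed as a whole was asked from the number of peaks in each protein-coding gene plus 10 kb on each side, with the members' own peaks left out. Of 108 such genes with a member, 102 had a mean of at least 3 peaks and were tested with limma over all 16 libraries. The 108 genes hold only 83 of the members, and neighbouring genes that share a member and peaks were counted separately. With Raf active in normoxia, 34 loci (33.3%) gained peaks and 25 (24.5%) lost them, against 37.2% and 25.9% of all 15217 loci, shares near the background. Without scaling the libraries to the same total, 62 rose and 13 fell, against 56.8% and 16.3% of all loci, so the balance of directions rests on the scaling.

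The rises were led by SKAP1, an adaptor of T cell adhesion, from 8.93 ± 2.48 to 20.3 ± 0.823 scaled peaks (SD, n = 4 each), a log2 change of 1.13 (limma, adjusted p = 2.1e-06). ZSCAN9 and ZKSCAN4, neighbouring zinc finger genes that share 1 member and part of their peaks, rose by 1.01 and 0.93 on the log2 scale, and GUCD1 by 0.96. The ZSCAN9 call is lost with 50 kb on each side of the gene (log2 change 0.11, adjusted p = 0.198). Among the falls, PRKAA1, the AMPK catalytic subunit gene whose member lies 1315 bp from its start, went from 7.83 ± 0.560 to 2.93 ± 0.845 peaks, a log2 change of -1.19 (limma, adjusted p = 1.0e-06). RRAS2, a Ras-related GTPase gene, went from 17.6 ± 0.951 to 7.23 ± 1.23 and HMCN1, a basement membrane protein gene, from 55.9 ± 2.72 to 25.7 ± 1.57. MSRB3, a methionine sulfoxide reductase gene, changed by -0.93 and AADACL2 by -0.89 on the log2 scale. Their mean scaled peaks went from 21.1 to 10.6 and, again with few peaks, from 5.94 to 2.71.

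A member and its locus did not always move together, with loci that share a member counted separately. Of 18 tested loci whose member rose in rank with Raf, 8 gained peaks, 2 lost them and 8 were not called. Of 17 whose member fell, 6 gained, 5 lost and 6 were not called. GRIA1 is one of the opposed cases: its member rose, while the locus went from 35.7 ± 1.53 to 23.7 ± 3.43 scaled peaks with Raf in normoxia (log2 change -0.58, limma, adjusted p = 1.7e-05).

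With the members' peaks left out, the change of the loci in hypoxia was close to that of all loci. The median log2 change in hypoxia was -0.04 over the 102 loci with Raf inactive and -0.05 with Raf active, against -0.00 and -0.02 over all 15217, and 58 of the 102 (56.9%) lay below 0 in each state, against 50.4% and 52.8%. Since the members were chosen on the oxygen contrast, no test was made. The GRIA1 locus had 39.6 ± 1.46 scaled peaks in hypoxia with Raf active, more than its 23.7 ± 3.43 in normoxia, while its member was lost. In RRAS2 the change in hypoxia was 0.03 with Raf inactive and 0.40 with Raf active, and in MSRB3 it was 0.07 and -0.46.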

How the data were processed

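ATAC-seq peak lists of 16 libraries, 4 per group by the labels, were analysed. The submitters' processing notes name MACS2, Bowtie2, cutadapt, FastQC, Picard, SAMtools, bedtools and deepTools, and the build hg38. Versions and settings are not given in the sources used here. The authors deposited 1 narrowPeak list per library, each with a score, the fold (a ratio over local background), −log10 p and −log10 q per peak. These depend on depth and were used within a list. Reads and signal tracks were not used here.

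Peaks with the same interval were counted once. The summit pileup and local background were solved from fold and −log10 p, taking the fold as (pileup + 1) / (background + 1) and the p as Poisson. The listed −log10 p was matched within 0.001 in at least 99.96% of peaks with a −log10 p under 290, and simulated peaks were recovered. The background pileup of a library is the lowest permille of the local backgrounds recovered over its peaks. Gene positions, promoter windows and microRNAs came from RefSeq tables (GRCh38.p14). Starts were listed for 15813 of 19974 protein-coding genes, and for the other 4161 both ends were used. No genome was used, so no region sequence or motif is shown.

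Tests used limma 3.58.1 (R 4.3.3) with Benjamini-Hochberg adjustment, and were tested on simulated data. Loci took log2 of scaled peaks plus 1. The members and gene lists were chosen with earlier results of these data known. Named regions are the 10 highest by mean percentile, those within 1 kb of a start, up to 3 per gene list, the 5 largest rises and 5 largest falls with Raf whose groups do not overlap (likewise for loci), the 3 lowest and the 3 nearest outside the rule. One locus this rule names is not reported here. Alternatives are given in the closing section.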

Additional observations from a re-analysis of the deposited data

Results flagged for a closer look

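In 66 groups of 4 libraries the gap of the outermost library to its neighbour was compared with the whole range (Dixon's test at the 95% level), and 9 were past it. Chance flags about 5% of groups. The values are percentiles of the −log10 p among the regions listed in all 8 normoxia libraries, and all 9 belong to single regions.

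With Raf active, replicate 1 stood at 70.9 in TTC22, where the others lay between 61.7 and 62.8. In REEP5 replicate 1 was the highest of both groups, at 46.0 with Raf inactive (others 28.1 to 31.1) and 17.2 with Raf active (others 8.14 to 9.17). Near MAP4, replicate 4 with Raf inactive stood at 14.6, below the others at 39.6 to 44.2. Near LSM14A, replicate 2 with Raf active stood at 13.4, above the others at 4.63 to 5.83, and in WDR55 and DND1 replicate 2 stood at 9.80, above 2.44 to 2.92. Near EAPP, replicate 4 with Raf inactive stood at 9.41, above 0.368 to 1.47. Among the weakest members with Raf active, replicate 3 stood at 3.74 in RBMS1, above 0.447 to 0.649, and replicate 4 at 1.46 near NYAP2, above 0.618 to 0.649.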

How the results depend on the processing

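The number of members depends on how many libraries must agree. With at least 7 normoxia and at most 1 hypoxia library it was 660, without replicate number 1, 2, 3 or 4 in every group 247, 219, 218 and 197, and without 1 library 117 to 152. The other settings gave 94 to 128 regions, but not always the same ones: peaks with a fold of at least 5 gave 94 with 3 of the 110 among them, a −log10 q of at least 5 gave 96 with 66, and lists thinned to matched depth and cut at a −log10 p of 5 gave 128 with 60. That cut at full depth, added after seeing the data, gave 114 with 96. Gained regions numbered 148 with thinning and cut and 257 with the cut alone, against 235.

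For Raf in normoxia, 41 members were higher by summit level, an alternative added after seeing the data, against 22 by rank. Without 1 library, 18 to 25 were higher and 18 to 21 lower, and ranking by fold gave 18 and 31. Unscaled loci gave 62 higher and 13 lower. Without 1 library, 32 to 37 loci were higher and 20 to 25 lower. Same-numbered libraries hardly deviated together (r from -0.00 to 0.03 over regions and from -0.03 to 0.02 over loci). Whether the numbers mark shared cultures is not in the labels and cannot be told from these values. With a replicate block 23 members were higher and 24 lower, and 33 and 24 loci. Of 363 comparisons of single named regions and loci with an alternative, 360 kept direction and call and 3 lost the call: the regions near WNT9A and in REEP5 ranked by fold, and the ZSCAN9 locus with 50 kb on each side (adjusted p = 0.198). None reversed. The depth of the lists limits what a missing peak shows, as bounded above.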
